A study of Mus musculus with 6 samples.

Results

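The 9 genes described here encode the receptor c-Kit, its ligand and receptors for cytokines that act on blood stem cells, blood progenitors and myeloid cells. They were *Kit*, *Kitl*, *Flt3*, *Il3ra*, *Csf2ra*, *Csf2rb*, *Csf2rb2*, *Csf3r* and *Il6st*, taken by name from the 24062 genes in the count tables, and all 9 were found. RNA was sequenced from CD31+ckit+Vmed and CD31+ckit+Vhigh cells, with 3 libraries per fraction. Both fractions were sorted from the aorta-gonad-mesonephros region (AGM) of embryonic day 10.5 (E10.5) C57BL/6JOlaHsd mouse embryos in which a Venus fluorescent reporter sits in the 3′ untranslated region of *Gata2*. The embryos were heterozygous for the reporter, so the cells of both fractions carried it, together with 1 *Gata2* allele without Venus. Cells were gated on CD31, a surface protein of endothelial and emerging blood cells, on c-Kit, and then on medium or high Venus fluorescence. The labels name the Vmed and Vhigh populations G2Vi and G2Vh, and call the cells of both hematopoietic progenitor/stem cells. The dissected region included parts of the vitelline and umbilical arteries, and whether embryos were pooled for a library is not given in the sources used here.

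c-Kit is a receptor tyrosine kinase that dimerizes when it binds stem cell factor, the product of *Kitl*, which neighbouring cells present on their membrane or secrete. Flt3 belongs to the same receptor class and marks early multipotent and lymphoid-primed progenitors. The receptors for IL-3, GM-CSF, G-CSF and the IL-6 family have no kinase of their own and signal through Janus kinases and STAT proteins, and the IL-3 and GM-CSF receptors pair a ligand-binding alpha chain with a beta chain they share. In the E10.5 aorta, c-Kit is the classical surface marker of the intra-aortic hematopoietic clusters, and stem cell factor from cells around the vessel is a known growth factor of the blood stem cells that emerge there.

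The libraries held between 8296831 and 9715131 counts on genes in Vmed and between 10660122 and 12035206 in Vhigh. Of these sums, 3 counts, taken as the smallest number to be shown, are between 0.249 and 0.362 CPM, counts per 1000000 counts on genes. Genes with at least 1 count numbered 10427 in Vhigh replicate 1 and between 12709 and 18460 in the other libraries. Levels from here on are in CPM scaled to TMM-adjusted library sizes, except where plain sums are named. Of the genes of the sorting gate, *Kit* and *Pecam1*, the gene of CD31, were above 60 CPM in all 6 libraries. There was no library of ungated cells to compare these levels with. *Gata2*, the gene that carries the reporter, had 52.9, 28.6 and 70.5 CPM in Vmed replicates 1, 2 and 3 and 42.8, 72.7 and 145 CPM in Vhigh, and its log2 fold change, Vhigh over Vmed, was 0.78 (standard error 0.73). For *Pecam1* it was −0.52 (standard error 0.62). Markers of other cells were present in both fractions. The 8 blood markers summed to between 226 and 410 CPM in Vmed and between 742 and 1297 CPM in Vhigh, and 8 of 8 had a positive fold change. The 11 endothelial markers summed to between 1130 and 4813 CPM in Vmed and between 893 and 3352 CPM in Vhigh. The 8 mesenchyme markers summed to between 1808 and 5409 CPM in Vmed, above the blood markers there, and to between 287 and 673 CPM in Vhigh, with 8 of 8 negative. The 11 macrophage markers found in the tables summed to between 996 and 1857 CPM in Vmed and between 126 and 553 CPM in Vhigh, with 10 of the 10 tested negative. In bulk RNA, fewer cells of a type and less RNA per cell cannot be told apart.

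Each gene was compared between the fractions by the quasi-likelihood test of edgeR, and p-values were adjusted by the Benjamini-Hochberg method over all 12688 genes that the low-count filter kept. Levels are in CPM scaled to TMM-adjusted library sizes. An exact permutation test (two-sided, on log2 CPM) was run for each of the 9 genes, and with 3 libraries against 3 its p cannot be below 0.1. Of the 9 genes, 8 passed the filter and *Csf2rb2* did not. None of the 8 had an adjusted p under 0.05, and neither did any other gene (0 of 12688, 0%). The smallest adjusted p of any gene was 0.66, and that of each of the 8 was 0.9998. The differences described below are therefore measured values in these libraries and not calls. At an unadjusted p under 0.05 in edgeR's quasi-likelihood test, *Kit* and *Flt3* were higher in Vhigh, beside 0.867% of all tested genes, and *Kitl* was lower, beside 1.17% of all. By edgeR's likelihood ratio test and by DESeq2, 0 of the 8 had an adjusted p under 0.05. Every Vhigh library was above every Vmed library for *Kit* and *Flt3*, which held for 3.63% of all tested genes, and below for *Kitl* and *Csf2ra*, which held for 5.3%, although for *Csf2ra* only with the TMM scaling and not with CPM of the plain sums. The log2 fold change was positive for 5 of the 8 and negative for 3, with a median of 0.78, beside −0.02 over all tested genes.

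**Figure D1:**
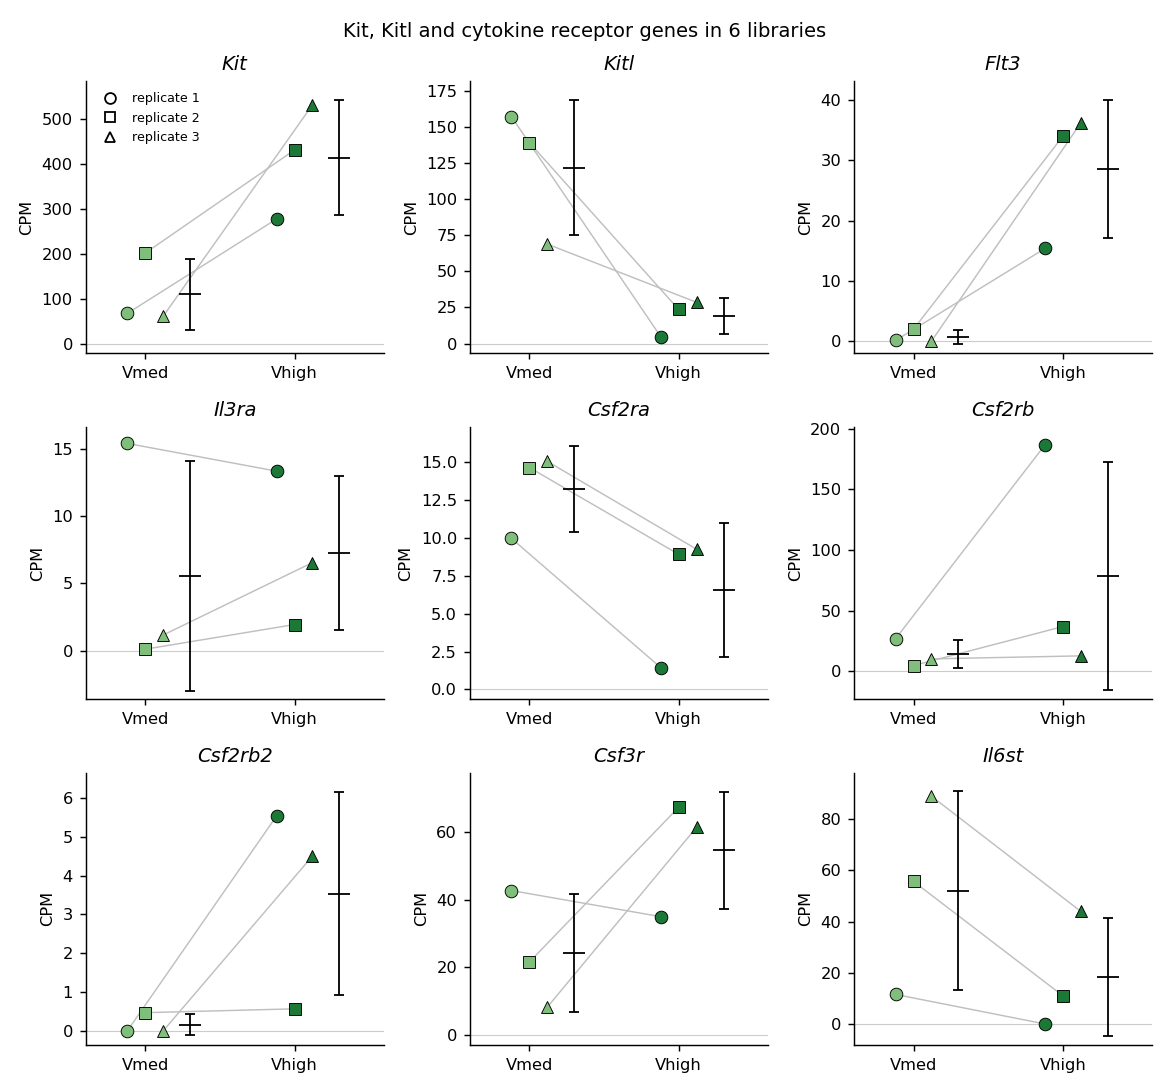
Expression of the 9 genes in CPM (y axis, linear) in the 3 Vmed and 3 Vhigh libraries (x axis). Circles, squares and triangles are replicates 1, 2 and 3, grey lines join libraries with the same number, and the bar beside each group is the mean with 1 SD. The groups lie apart for *Kit*, *Kitl*, *Flt3* and narrowly for *Csf2rb2* and, with this TMM scaling but not with plain sums, *Csf2ra*, while for *Csf2rb* the Vhigh mean rests on 1 library at 187 CPM.

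*Kit* RNA was at a higher level in each Vhigh library than in any Vmed library. *Kit* lies on chromosome 5 of GRCm38 from 75574916 to 75656722 on the plus strand. It had 67.3, 202 and 60.9 CPM in Vmed replicates 1, 2 and 3 and 278, 432 and 532 CPM in Vhigh. All 3 Vhigh libraries lay above the highest Vmed library, replicate 2, which was itself more than 130 CPM above the other Vmed libraries. The means were 110.0 ± 79.6 CPM (SD, n = 3) in Vmed and 414 ± 128 CPM (SD, n = 3) in Vhigh. Its log2 fold change was 1.91 (standard error 0.57, 95% interval 0.64 to 3.19), a fold of 3.76, with an adjusted p of 0.9998 and an unadjusted p of 0.0090 in edgeR's quasi-likelihood test and p = 0.1 in the exact permutation test. Within same-numbered pairs, the log2 difference was 2.04, 1.1 and 3.12. Leaving out 1 library gave values between 1.62, without Vmed replicate 3, and 2.67, without Vmed replicate 2. With the replicate number as a block, it was 2.09 (standard error 0.41, adjusted p = 0.69 by the quasi-likelihood test in edgeR). With the same block and edgeR's likelihood ratio test, the adjusted p was 0.034, and *Kit* was the only one of the 8 under 0.05, beside 0.205% of all tested genes that were higher in Vhigh by that rule. The labels do not state that equal numbers are pairs, and the pairing was inferred from these libraries. With the block, the likelihood ratio test gave 74 genes under 0.05 in all, whereas the quasi-likelihood test gave 0. Both fractions were gated on c-Kit protein, and whether its staining differed between them within the gate was not measured by these counts.

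The sum of the blood markers was also higher in Vhigh, as given above. *Runx1*, *Myb*, *Gfi1b* and *Coro1a* did not overlap between the fractions, whereas *Ptprc*, *Itga2b*, *Spn* and *Vav1* did. The part of the blood markers in the difference of *Kit* was not tested. Mast cells, primordial germ cells and melanoblasts also express *Kit*. The 9 mast cell and basophil markers summed to between 28.5 and 63.2 CPM in Vmed and between 40.2 and 150 CPM in Vhigh. *Cma1* and *Mcpt4*, proteases of mature mast cells, had no counts in any library. *Cpa3*, a mast cell protease that early progenitors also express, had 11.7, 3.52 and 0 CPM in Vmed replicates 1, 2 and 3. In Vhigh it had 149.5, 21.0 and 11.3 CPM. It was higher in Vhigh in each same-numbered pair, although the groups overlapped narrowly. *Ms4a2*, *Tpsab1* and *Fcer1a* had 68, 41 and 17 counts in Vhigh replicate 2 and none in any other library. *Tpsb2* and *Mcpt8* had counts in 1 Vmed library each. *Hdc* had 50.3, 32.8 and 28.5 CPM in Vmed replicates 1, 2 and 3 and 0.512, 24.5 and 28.9 CPM in Vhigh. It was lowest in Vhigh replicate 1, where *Cpa3* was highest. The 9 primordial germ cell markers summed to at most 49.5 CPM in any library and the 7 melanoblast and neural crest markers to at most 46.2 CPM, and both ranges overlapped between the fractions.

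The sequence upstream of *Kit* and of *Flt3*, the genes with unadjusted p under 0.05 that were higher in Vhigh, is shown to give the context of their starts. Sequences are from RefSeq (GRCm38.p6), 5′ to 3′ on the strand of the gene, in lower case, and capitals mark a match to one of the motifs named below. The *Kit* sequence is chr5:75574737-75574915 on the plus strand and stops where the GENCODE gene begins, so that it shows 179 of the 250 bases searched. The *Flt3* sequence is chr5:147400490-147400739 on the minus strand.
Kit upstream: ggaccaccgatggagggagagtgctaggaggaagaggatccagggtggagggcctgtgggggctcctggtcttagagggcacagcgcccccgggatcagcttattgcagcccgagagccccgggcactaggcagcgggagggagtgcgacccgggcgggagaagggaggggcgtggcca
Flt3 upstream: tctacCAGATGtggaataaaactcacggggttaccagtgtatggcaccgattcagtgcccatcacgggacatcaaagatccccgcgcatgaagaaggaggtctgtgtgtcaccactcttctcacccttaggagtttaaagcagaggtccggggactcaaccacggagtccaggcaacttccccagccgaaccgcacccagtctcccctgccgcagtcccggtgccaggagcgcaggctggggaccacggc
The 250 bases before the RefSeq start were searched on both strands for the core motif bound by GATA factors, spelled AGATAA, the core motif bound by RUNX factors, spelled TGTGGT, the core motif bound by many ETS factors, spelled CAGGAA, the TATA box in the spelling TATAAA, and the E-box of helix-loop-helix factors, spelled CANNTG, and matches may overlap each other. Of 27025 promoter windows of that length, 10.3% held the GATA core, 14.2% the RUNX core, 25.4% the ETS core, 13% the TATA box and 66% an E-box. The *Kit* window held none of these letters and the *Flt3* window held 1 E-box, at −245 to −240 counted from the start. The windows of 8 of the 9 genes were matched, and *Csf2rb* was not. Among the others, *Kitl* held the TATA box at −25 to −20, *Csf3r* held 4 matches to the ETS core and *Il3ra* held 2.

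*Kitl*, the gene of stem cell factor, went the other way. It lies on chromosome 10 of GRCm38 from 100015630 to 100100416 on the plus strand. Vmed replicates 1, 2 and 3 had 157, 139 and 68.9 CPM, and the Vhigh libraries had 4.71, 23.6 and 28.5 CPM. The highest Vhigh library was below the lowest Vmed library, and Vhigh replicate 1 was the lowest of all, with 46 counts (95% Poisson interval 33.7 to 61.4, counting error only). The means were 122 ± 46.6 CPM (SD, n = 3) and 19.0 ± 12.6 CPM (SD, n = 3). This gave a log2 fold change of −2.68 (standard error 0.79, 95% interval −4.45 to −0.91), a fold of 6.41 lower in Vhigh, with an adjusted p of 0.9998 and an unadjusted p of 0.0097 in edgeR's quasi-likelihood test and p = 0.1 in the exact permutation test. Within pairs, the log2 difference was −5.00, −2.55 and −1.26, so that its size varied more between pairs than that of *Kit*. The fits that left out 1 library gave −3.07 to −2.22, the value nearest 0 being that without Vhigh replicate 1. *Kitl* is known from stromal and endothelial cells. The mesenchyme markers, 8 of 8, and 10 of the 11 endothelial markers had a negative fold change too. The sums of the mesenchyme markers did not overlap between the fractions, whereas those of the endothelial markers did. The part of these markers in the difference of *Kitl* was not tested.

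The opposite directions of ligand and receptor gene could be set side by side within each library, where library size does not enter. The log2 ratio of *Kitl* to *Kit* in RPKM, CPM per kilobase of exon, was 1.81, 0.05 and 0.77 in Vmed replicates 1, 2 and 3 and −5.23, −3.59 and −3.62 in Vhigh. The ligand gene was thus at or above its receptor gene in the Vmed libraries and far below it in every Vhigh library. The means were 0.88 ± 0.88 (SD, n = 3) and −4.15 ± 0.94 (SD, n = 3). The difference was −5.03, larger than the spread within either fraction, was lower in 3 of 3 pairs, and had p = 0.1 in the exact two-sided permutation test, the smallest that 3 against 3 can give. It stayed between −5.44 and −4.49 when any single library was left out. The difference does not depend on the gene lengths, but the level does. With the longest transcript of each gene in place of the union of its exons, the Vmed ratios were 1.11, −0.65 and 0.07, so that which of the genes was higher in Vmed replicate 2 depended on the length used.

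**Figure D2:**
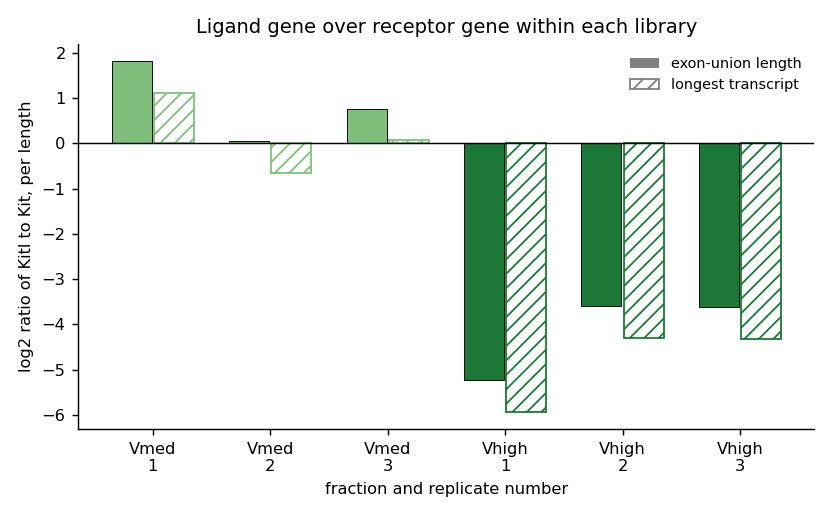
Log2 ratio of *Kitl* to *Kit* per unit length (y axis) in each library (x axis). Filled bars use exon-union lengths and hatched bars the longest transcript. The Vhigh bars reach −3.59 or lower with either length, whereas the Vmed bars lie between −0.65 and 1.81.

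*Flt3* was close to absent in Vmed and present in every Vhigh library. It lies on chromosome 5 of GRCm38 from 147330741 to 147400489 on the minus strand. The Vmed libraries had 1, 17 and 0 counts and the Vhigh libraries had 150, 419 and 426 counts. In CPM these were 0.12, 1.99 and 0 in Vmed and 15.4, 34 and 36.2 in Vhigh. In Vmed replicate 3, which had no counts, 3 counts would be 0.309 CPM of its plain sum. As for *Kit*, the highest Vmed library was replicate 2 and the lowest Vhigh library was replicate 1, and the groups were far apart. The means were 0.705 ± 1.12 CPM (SD, n = 3) and 28.5 ± 11.4 CPM (SD, n = 3). On the log2 scale the fold change was 5.32 (standard error 1.71, 95% interval 1.51 to 9.13), with an adjusted p of 0.9998 and an unadjusted p of 0.025 in edgeR's quasi-likelihood test and p = 0.1 in the exact permutation test. Its size rested on few Vmed counts, since 17 of the 18 were in replicate 2, and without that library it was 8.61, against 4.74 to 5.62 with any other library left out. *Flt3l*, the gene of the Flt3 ligand, had 9.50 CPM in Vmed replicate 2, 4.87 and 2.21 CPM in Vhigh replicates 2 and 3, and no counts in the other libraries.

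The alpha chains, which bind IL-3 and GM-CSF, showed no common direction. *Il3ra* (chromosome 14, 14346275 to 14356011, plus strand) had 15.4, 0.117 and 1.17 CPM in Vmed replicates 1, 2 and 3 and 13.3, 1.95 and 6.54 CPM in Vhigh. Both libraries numbered 1 were the highest of their fraction, and the Vhigh range lay inside the Vmed range. Its log2 fold change was 0.39 (standard error 2.05, 95% interval −4.17 to 4.95), and it ran from −0.40 without Vhigh replicate 1 to 3.48 without Vmed replicate 1, so that no direction could be given. *Csf2ra* (chromosome 19, 61223957 to 61228429, minus strand) had 9.97, 14.7 and 15.1 CPM in Vmed and 1.43, 8.92 and 9.26 CPM in Vhigh. The Vhigh libraries were below every Vmed library by a narrow margin, and Vhigh replicate 1 stood apart with 14 counts. With CPM from the plain sum of gene counts, Vhigh replicate 2 had 10.1 CPM, above the 9.50 CPM of Vmed replicate 1, so that the separation of *Csf2ra* depended on the scaling. For *Csf2ra*, the log2 fold change was −1.02 (standard error 1.56, 95% interval −4.49 to 2.46, p = 0.1 in the exact permutation test), and it was −0.54 without Vhigh replicate 1.

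The beta chains are encoded by neighbouring genes on chromosome 15, *Csf2rb* at 78325752 to 78353847 on the plus strand and *Csf2rb2* at 78282507 to 78305721 on the minus strand. *Csf2rb* encodes the common beta chain of the IL-3, IL-5 and GM-CSF receptors, and *Csf2rb2* a second beta chain, found in mice, that serves the IL-3 receptor alone. Their coding sequences, of 2691 and 2637 bases, were identical at 95.21% of the aligned bases without gaps, and the longest identical run was 242 bases. Reads were 50 bases long. Of the 4851 stretches of 50 bases in the longest coding transcript of *Csf2rb*, 892 (18.4%) also occurred in *Csf2rb2*, so that reads from there cannot be assigned to either gene by sequence. Pairs of 90-base windows, the ones with the most and the fewest differences, show how much the genes can be told apart. They are from the GENCODE transcripts, 5′ to 3′ on the coding strand, with positions counted from the first coding base, and capitals mark the bases that differ. In the first pair, *Csf2rb* 308 to 397 and *Csf2rb2* 311 to 400 differ at 16 positions.
Csf2rb: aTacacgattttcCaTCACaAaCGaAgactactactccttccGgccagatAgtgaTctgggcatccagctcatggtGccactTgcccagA
Csf2rb2: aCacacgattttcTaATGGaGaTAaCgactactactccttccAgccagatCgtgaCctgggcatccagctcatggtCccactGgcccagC
In the second pair, *Csf2rb* 662 to 751 and *Csf2rb2* 665 to 754 do not differ.
Csf2rb: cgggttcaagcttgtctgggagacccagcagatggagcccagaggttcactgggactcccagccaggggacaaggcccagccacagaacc
Csf2rb2: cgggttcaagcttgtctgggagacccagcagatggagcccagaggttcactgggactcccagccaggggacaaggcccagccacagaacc

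*Csf2rb* had 26.8, 4.69 and 10.2 CPM in Vmed replicates 1, 2 and 3 and 187, 36.8 and 12.7 CPM in Vhigh. It was higher in Vhigh in 3 of 3 pairs, with log2 differences of 2.79, 2.92 and 0.31, but the third Vhigh library lay below the first Vmed library. The means were 13.9 ± 11.5 CPM (SD, n = 3) and 78.7 ± 94.3 CPM (SD, n = 3), and the Vhigh SD was larger than its mean. The fit gave *Csf2rb* a log2 fold change of 2.50 (standard error 1.12, 95% interval 0.02 to 4.98), with an unadjusted p of 0.059 in edgeR's quasi-likelihood test and p = 0.2 in the exact permutation test. The interval, which comes from the standard error, ends just above 0, while the test itself did not reach an unadjusted p of 0.05. The value was 0.83 without Vhigh replicate 1, and 2.09 to 3.41 with any other library left out. *Csf2rb2* had 0, 4 and 0 counts in Vmed and 54, 7 and 53 in Vhigh, or 0, 0.469 and 0 CPM against 5.53, 0.568 and 4.50 CPM. The groups did not overlap, although the nearest libraries, both numbered 2, differed by only 3 counts. The count tables hold alignments that are not unique on a line of their own, outside the genes, so reads from stretches identical in both genes would be left out of both counts. *Csf2rb2* held 2.88%, 1.52% and 26.2% of the counts of both genes in the Vhigh libraries. The log2 RPKM ratio of *Csf2rb2* to *Csf2rb* was −4.41, −5.04 and −0.84 in Vhigh and −2.19 in Vmed replicate 2. In Vmed replicates 1 and 3, where *Csf2rb2* had no counts, the ratio has no measured size and is set by the prior count, the small number added to each count before the logarithm. The difference was 1.03 with a prior count of 2 and 2.37 with 0.5 (p = 0.6 and p = 0.4, exact permutation test).

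Within a library, the GM-CSF receptor alpha chain could be compared with its beta chain. The log2 RPKM ratio of *Csf2ra* to *Csf2rb* was −0.06, 2.94 and 1.90 in Vmed replicates 1, 2 and 3 and −5.49, −0.68 and 0.90 in Vhigh. It was lower in Vhigh in 3 of 3 pairs, but the groups overlapped. The difference was −3.35, with p = 0.2 in the exact two-sided permutation test. Without Vhigh replicate 1, in which *Csf2ra* was lowest and *Csf2rb* highest, it was −1.48.

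*Csf3r* and *Il6st* also differed in direction. *Csf3r*, the receptor of G-CSF, the main growth factor of neutrophils, lies on chromosome 4 from 126024550 to 126044440 on the plus strand. It had 42.7, 21.6 and 8.28 CPM in Vmed replicates 1, 2 and 3 and 35.0, 67.2 and 61.3 CPM in Vhigh. Vhigh was higher in pairs 2 and 3 and not in pair 1, and the groups overlapped. The log2 fold change was 1.17 (standard error 0.94, 95% interval −0.92 to 3.26, p = 0.2 in the exact permutation test). Of the neutrophil markers, whose sum was between 369 and 512 CPM in Vmed and between 830 and 1126 CPM in Vhigh, *Mpo* and *Prtn3*, early granule genes, made up the larger part, 4 of the 6 tested were higher in Vhigh, and *Ctsg* had no counts in any library. Their part in the level of *Csf3r* was not tested. Of the 3432 stretches of 50 bases in the *Csf3r* transcript, 395 (11.5%) also occurred in transcripts of other genes, whereas *Kit*, *Kitl*, *Flt3*, *Il3ra*, *Csf2ra* and *Il6st* shared none.

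*Il6st* encodes gp130, the signal-transducing chain shared by the receptors of IL-6, LIF and related cytokines, and lies on chromosome 13 from 112464070 to 112510086 on the plus strand. It had 11.5, 55.7 and 89.0 CPM in Vmed replicates 1, 2 and 3 and 0, 11 and 44.0 CPM in Vhigh. Each Vhigh library was below the Vmed library of its number, with log2 differences of −2.32 and −1.01 in pairs 2 and 3, but the libraries of each fraction were so far apart that the groups overlapped. Vhigh replicate 1 had no counts, where 3 counts would be 0.281 CPM of its plain sum, so the size of the difference in pair 1 depends on the prior count. The difference of the mean log2 CPM was −3.07 with a prior count of 2 and −3.74 with 0.5. The log2 fold change was −1.50 (standard error 1.62, 95% interval −5.11 to 2.10, p = 0.2 in the exact permutation test). With the replicate block it was −3.06, and with 1 library left out it ran from −3.15, without Vhigh replicate 3, to −0.87, without Vmed replicate 3.

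**Figure D3:**
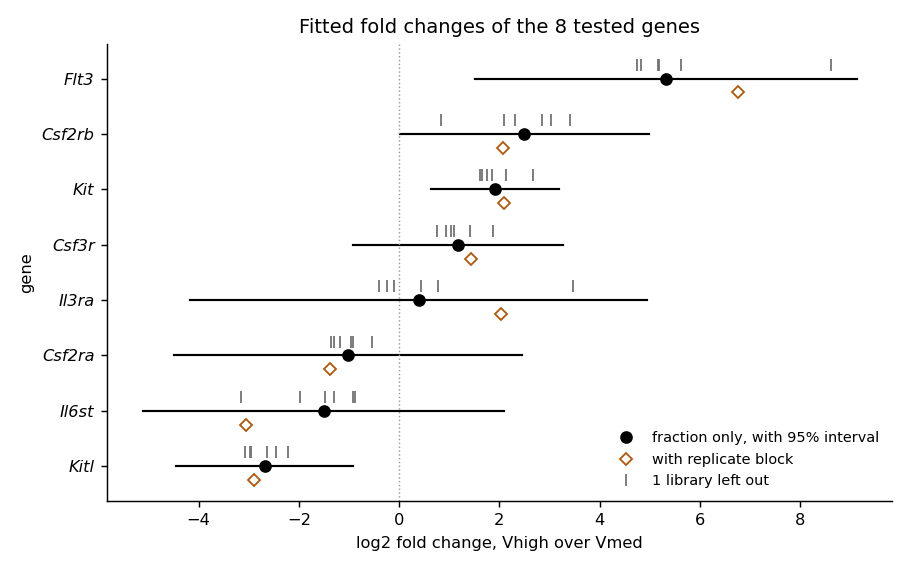
Log2 fold change of Vhigh over Vmed (x axis) for the 8 tested genes (y axis). Filled circles with lines are the fit without a block and its 95% interval, open diamonds the fit with the replicate block, and grey ticks the fits with 1 library left out. The intervals of *Kit*, *Kitl* and *Flt3* lie to one side of 0, that of *Csf2rb* ends at 0.02 although its unadjusted p was 0.059, and the ticks of *Il3ra* fall on both sides.

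Levels of different genes were compared in RPKM. In Vmed, the order by median was *Kitl* (23.5 RPKM), *Kit* (7.55), *Csf3r* (5.98), *Csf2ra* (5.11), *Il6st* (5.02), *Csf2rb* (1.40), *Il3ra* (0.393), *Flt3* (0.0195) and *Csf2rb2* (0), and the ranges of all neighbours in this order overlapped. In Vhigh, *Kit* came first at 48.5 RPKM, and its lowest library was above the highest of *Csf3r*, which followed at 17.0 RPKM. *Csf3r* in turn lay above *Flt3* (5.50 RPKM) in range. The ranges of the neighbours further down overlapped, in the order *Csf2rb* (5.06 RPKM), *Kitl* (3.99), *Csf2ra* (3.11), *Il3ra* (2.20), *Il6st* (0.994) and *Csf2rb2* (0.950). With the exon-union lengths used here, *Kitl* was the highest of the 9 genes in each Vmed library and *Kit* in each Vhigh library, but with the longest transcripts *Kit* was above *Kitl* in Vmed replicate 2. *Kit* held 12.7%, 35.7% and 19.1% of the summed RPKM of the 9 genes in Vmed replicates 1, 2 and 3 and 41.1%, 56.0% and 60% in Vhigh. *Kitl* held 44.8%, 37.1% and 32.5% in Vmed and 1.05%, 4.61% and 4.85% in Vhigh. Below *Kit*, Vhigh replicate 1 differed from the other Vhigh libraries, as *Csf2rb* took the second place with 25.6 RPKM.

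**Figure D4:**
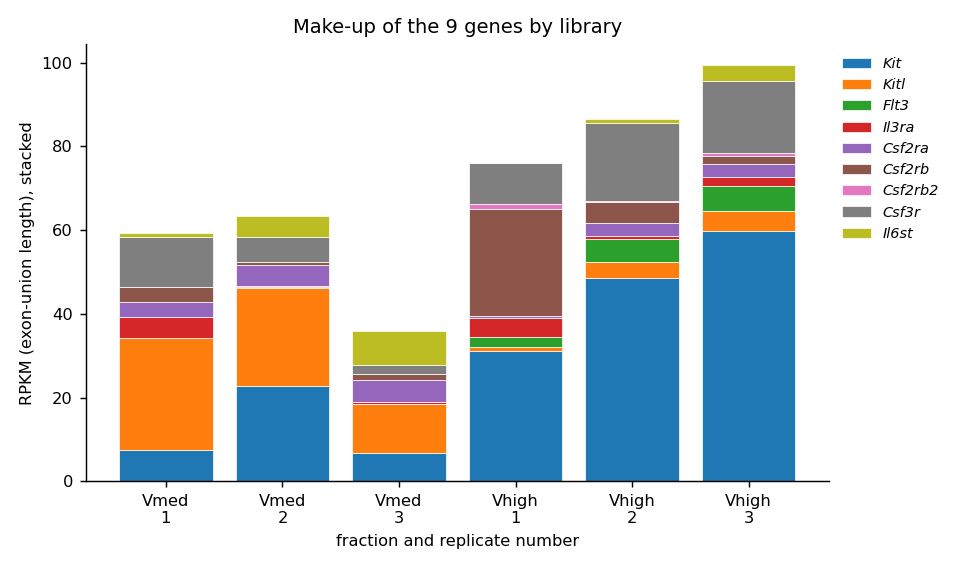
RPKM of the 9 genes from exon-union lengths, stacked (y axis), in each library (x axis). *Kitl* is the largest segment in the 3 Vmed libraries, in replicate 2 only with these lengths and not with the longest transcripts, and *Kit* is the largest in the 3 Vhigh libraries, where *Csf2rb* takes up 25.6 RPKM in replicate 1.

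For the 6 genes with a mean of 10 CPM or more, the genes most like them in log2 CPM over the 6 libraries were looked up among all tested genes. The measure was Pearson's r over 6 libraries of 2 fractions, in which any gene that differs between the fractions or stands out in the same library scores highly. For *Kit* these were *Dkc1* (r = 0.992), *Ash1l* (0.988) and *Cst7* (0.988), and for *Flt3* they were *Ash1l* (0.999), *Coro2a* (0.995) and *Fam212a* (0.988). *Kitl* was most like *Evi5* (0.992), *F2rl2* (0.991) and *Gpm6a* (0.991), and *Csf3r* was most like *Usp53* (0.980), *Arid3a* (0.974) and *Tada2a* (0.968). The profile of *Csf2rb*, which peaks in Vhigh replicate 1, was most like *Hspe1* (0.994), *Uxt* (0.990) and *Zmat2* (0.986). *Il6st*, which is lowest in that library, was most like *Stab2* (0.997), *Ptpn1* (0.997) and *Flt4* (0.996), and 489 genes had an r over 0.95 with it, against 11 to 62 for the other 5.

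Other genes of the same pathways were read from 4 hand-written lists. Of 15 ligand genes, only *Flt3l* and *Csf1* had enough counts to be tested, with log2 fold changes of −0.42 (standard error 2.77) and −0.03 (standard error 2.05), and neither passed the test. *Il3*, *Il5* and *Epo* had no counts in any library. *Csf2*, the gene of GM-CSF, had 293 counts (30.0 CPM) in Vhigh replicate 1, the library with most *Csf2rb*, 6 in Vhigh replicate 2 and none in the others. *Thpo*, the gene of thrombopoietin, had 118 counts in Vhigh replicate 2 alone.

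Of 20 other cytokine receptor genes, 19 were tested, none had an adjusted p under 0.05, and 8 had a positive and 11 a negative fold change (median −0.12). Of all 12688 tested genes, 6201 had a positive and 6487 a negative fold change. *Lifr*, the LIF receptor chain that pairs with gp130, had 111, 181 and 138 CPM in Vmed replicates 1, 2 and 3 and 0.717, 30.4 and 46.0 CPM in Vhigh. Like *Il6st*, it was lowest in Vhigh replicate 1, but every Vhigh library was below every Vmed library, which held for 5.3% of all tested genes. Its log2 fold change was −2.48 (standard error 1.04, with an unadjusted p of 0.047 and an adjusted p of 0.9998 in edgeR's quasi-likelihood test). *Lifr* was the only gene of the list with an unadjusted p under 0.05, beside 1.17% of all tested genes that were lower in Vhigh by that rule. The next by p were *Csf1r*, the macrophage growth factor receptor (−1.35), *Cntfr*, another receptor of the gp130 family (−3.12), and *Ifnar2*, a type I interferon receptor chain (0.93). The groups of each of these genes overlapped. *Cntfr* rested on few counts, 32, 1 and 59 in Vmed replicates 1, 2 and 3 and 0, 13 and 1 in Vhigh (standard error 2.38). *Il7r*, the receptor of a lymphoid growth factor, was not tested, with 205 and 99 counts in Vhigh replicates 2 and 3 and none elsewhere.

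All 25 genes of receptor-proximal signal transduction were tested, none had an adjusted p under 0.05, and 16 were positive and 9 negative (median 0.27). *Plcg2*, a phospholipase downstream of tyrosine kinases, had 44.1, 54.4 and 99.5 CPM in Vmed replicates 1, 2 and 3 and 38.7, 206 and 446 CPM in Vhigh. It was the only gene of the list with an unadjusted p under 0.05 (log2 fold change 1.80, standard error 0.78, unadjusted p = 0.047 in edgeR's quasi-likelihood test). By that rule 0.867% of all tested genes were higher in Vhigh. The groups of *Plcg2* overlapped because of Vhigh replicate 1. *Plcg2* was followed by the kinase gene *Btk* (1.66), the exchange factor gene *Vav1* (1.19) and the adaptor gene *Grb2* (1.19), whose groups overlapped too. With the TMM scaling, 1 other gene of the list was higher in Vhigh without overlap and 1 was lower. This held for 3.63% and 5.3% of all tested genes.

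Of 18 genes that restrain these receptors or are induced by them, 17 were tested, none had an adjusted p under 0.05, and 9 were positive and 8 negative (median 0.41). *Dok2*, an adaptor that dampens signaling of tyrosine kinases in blood cells, had 49.6, 88.2 and 61.1 CPM in Vmed replicates 1, 2 and 3 and 180, 264 and 158 CPM in Vhigh. Every Vhigh library was above every Vmed library, as for *Kit* and for 3.63% of all tested genes. With the TMM scaling, 1 other gene of the list was lower in Vhigh without overlap, which held for 5.3% of all tested genes. For *Dok2*, the log2 fold change was 1.6 (standard error 0.52, with an unadjusted p of 0.013 and an adjusted p of 0.9998 in edgeR's quasi-likelihood test). At an unadjusted p under 0.05 in that test, 0.867% of all tested genes were higher in Vhigh. *Dusp6*, a phosphatase of ERK that is induced by ERK signaling, was at −1.32, *Ptpn6*, the phosphatase SHP-1, at 1.38, and *Spry2*, an induced inhibitor of receptor tyrosine kinase signaling, at −1.20, none with an unadjusted p under 0.05.

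**Figure D5:**
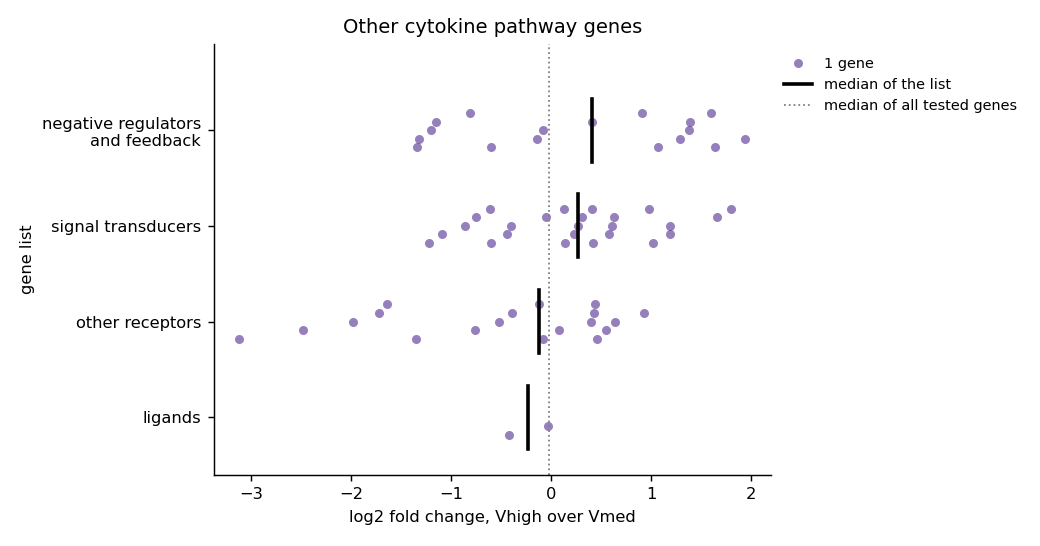
Log2 fold change of Vhigh over Vmed (x axis) for the tested genes of 4 lists of cytokine pathway genes (y axis). Each point is 1 gene, the black line is the median of the list and the dotted line the median of all tested genes (−0.02). The list medians lie between −0.23 and 0.41, and the points of the 3 longer lists spread to both sides of 0.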

How the data were processed

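RNA of CD31+ckit+Vmed and CD31+ckit+Vhigh cells (3 libraries each) was amplified by the SMARTer protocol and sequenced as single reads of 50 bases. Alignment by the authors was to GRCm38/mm10 with TopHat and Bowtie 1.1.2, and they deposited raw counts per gene, not normalized. HTSeq is listed in the submitters' processing notes. Its settings, the strand and the annotation are not given in the sources used here. The labels give each library its fraction and number. Every pair of libraries differed by more than sampling noise (chi-square per degree of freedom at least 82.04).

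The counts were analysed with edgeR 4.0.16 in R 4.3.3 (filterByExpr, TMM, quasi-likelihood test, fraction as the only term, Benjamini-Hochberg adjustment at 0.05). Standard errors come from the information matrix and the quasi-likelihood dispersion, and 95% intervals from the standard errors, so an interval and the p of the test can differ slightly. The prior count in log2 CPM was 2. Lengths for RPKM were exon unions of GENCODE M21 genes. The procedure was tested on simulated data with far less spread between libraries than was found here. That test therefore cannot show how many true differences are missed in these libraries. p-values set the difference between the fractions against the spread between these libraries, which may be technical in part. Without molecular identifiers, the Poisson intervals of counts and the floors reflect counting error alone.

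The members and lists were chosen with earlier results of these data known. Named were the 9 genes, from each of 4 pathway lists the genes past the threshold or, where fewer than 4 passed, the 4 with the smallest unadjusted p, the 3 genes most like each member with a mean of at least 10 CPM, and *Pecam1* and *Gata2*. Genes named outside this rule (*Csf2*, *Thpo*, *Il3*, *Il5*, *Epo*, *Il7r* and single marker genes) were chosen after their values were seen. The 12 marker lists, 1 of them for the sort, were written by hand. Of those not given in the report, megakaryocyte markers summed to between 355 and 739 CPM in Vmed and between 168 and 214 CPM in Vhigh, erythroid markers to between 186 and 631 and between 86.5 and 255, and markers of kidney and body cavity epithelium to between 213 and 319 and between 95.2 and 127.

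Same-numbered libraries deviated together from their group means (r = 0.21, 0.21 and 0.39 for numbers 1, 2 and 3, and −0.29 to −0.01 between different numbers). Deviations from a group mean cancel out, so positive values for the same number in part force the others to be negative. The numbers were taken to pair the libraries in the within-pair differences and the replicate block. The main fit and the permutation tests reported did not use this pairing. The number of alignments outside genes per count on genes also went with the number, between 0.158 and 0.184 in both libraries numbered 3 and between 0.648 and 1.56 in the others. Alternatives were RLE, upper quartile and library-size scaling, 2 other filters, the likelihood ratio test, DESeq2 1.42.0, limma-voom (limma 3.58.1), the replicate block with both edgeR tests, thinning, removal of *Rn45s*, another prior count, longest-transcript lengths, and each library left out.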

Additional observations from a re-analysis of the deposited data

How the results depend on the processing

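The direction of *Kit*, *Kitl*, *Flt3*, *Csf2ra*, *Csf2rb*, *Csf3r* and *Il6st*, and of the log2 ratio of *Kitl* to *Kit*, was the same under every alternative run. The count of all genes with an adjusted p under 0.05 was 0 in the report, and 37 with no filter, 21 by the likelihood ratio test, 51 by DESeq2, 0 with the replicate block, 74 with the replicate block and the likelihood ratio test, and 0 to 1 with each library left out. At an unadjusted p under 0.05 the quasi-likelihood test gave 259 genes, and 528 with the replicate block. Of the 9 genes, the replicate block with the likelihood ratio test gave 1, *Kit* (log2 fold change 2.09), and the block changed no other call among them. *Il3ra* reversed to −0.24 without Vmed replicate 2, −0.10 without Vmed replicate 3 and −0.40 without Vhigh replicate 1, in a leave-one-out range of −0.40 to 3.48. The difference in the ratio of *Csf2rb2* to *Csf2rb* ranged from −0.27, without Vhigh replicate 3, to 2.17, without Vmed replicate 2, when 1 library was left out, and it was 2.37 with a prior count of 0.5 in place of 2. The cause of these shifts was not tested. The biological coefficient of variation over all tested genes was 1.16. Counts were few for *Flt3* in Vmed, with 18 in all, and for *Csf2rb2*, with 4 in Vmed and 114 in Vhigh.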
